A study of Mus musculus with 2 samples.

Results

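The cells described here are the Trdc-positive, CD3-positive cells of cluster 4 in mouse adipose tissue, 151 of 10017 clustered cells. They came from 2 single-cell RNA sequencing libraries of tissue-resident CD45+ leukocytes from adult wild-type C57BL/6 mice, one from mice on chow (the control) and one from mice fed a ketogenic diet for 1 week. Intravenous labelling told resident cells from those in blood vessels. The labels do not say how many mice went into a library, so neither library shows a spread between animals. The measured quantity is the UMI (unique molecular identifier), a tag that counts a captured transcript once. The cells were chosen by 3 values: their cluster in the authors' deposited table had to be 4, and they had to hold at least 1 UMI of Trdc, the constant gene of the T cell receptor delta chain, and at least 1 UMI over Cd3e, Cd3d and Cd3g together. This gave 44 chow cells and 107 ketogenic cells. Because measured transcripts chose them, their Trdc and CD3 levels and the genes that shaped the cluster are given as description. No test is possible with a single library for each diet, so no p-value is given, and square brackets hold exact 95% intervals for counting error only. Where values are given in pairs, chow comes first and the ketogenic diet second.

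T cells carry a receptor made of either an alpha and a beta chain or a gamma and a delta chain, together with the CD3 proteins that pass its signal on. The gamma-delta T cells of mouse adipose tissue are best known for a resident population that makes interleukin 17 (IL-17), while other gamma-delta T cells make interferon gamma and can carry receptors named after natural killer (NK) cells. Among these are the Ly49 receptors (Klra genes) and the NKG2 receptors (Klrc genes and Klrk1). NKG2A, the product of Klrc1, is an inhibitory receptor that pairs with CD94, the product of Klrd1.

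Other cells of the same libraries serve for comparison. The nearest are the remaining CD3-positive cells of cluster 4, 211 and 403, which held no Trdc UMI and are called Trdc-negative. The Trdc-positive, CD3-positive cells of cluster 11 numbered 45 and 95, and the cells of cluster 1 without a Trdc or CD3 UMI numbered 538 and 644. The 151 cells held 117994 UMIs in the chow library, with a median of 2403.5 per cell (range 1715 to 7526), and 415077 in the ketogenic library, with a median of 3121 (range 2074 to 12704). Ketogenic cells were thus deeper, and the same held in the comparison groups, whose medians were 2266 to 2947 and 3061.5 to 3493. Shares of cells with a transcript are therefore also given after thinning each cell to 1000 UMIs. The libraries shared 41 cell barcodes, and 1 of the 151 cells carried one.

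Trdc was carried by a median of 3 UMIs per chow cell (range 1 to 10) and 4 per ketogenic cell (range 1 to 16). At the edge of the rule, 11 chow and 20 ketogenic cells held exactly 1 Trdc UMI, and 2 cells in each library held exactly 1 CD3 UMI. Just outside it, 1 ketogenic cell and 0 chow cells of cluster 4 held Trdc without CD3. Cells outside cluster 4 held Trdc as well. In cluster 1 it was seen in 96 of 724 and 213 of 1062 cells, at 73.4 and 102 CPM (counts of a gene scaled to the same total in every group) over the cluster, and 66 and 151 of these cells lacked a CD3 UMI. In cluster 6, dendritic cells that serve as background, 0.977% and 3.66% of cells held a Trdc UMI at median depths of 7906 and 9922 UMIs, or 0.129% and 0.653% after thinning. Thinning left Trdc in 11.6% and 14.5% of all cluster 4 cells, whose median depths were 2475 and 3388 UMIs.

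The cells made up 0.987% [0.718–1.32] of clustered cells on chow and 1.92% [1.58–2.32] on the ketogenic diet, a ratio of 1.95 [1.36–2.84]. The ratio depended on the cells it was counted over. Within cluster 4 the shares were 16.4% [12.1–21.3] of 269 cells and 20.8% [17.4–24.5] of 515, a ratio of 1.27 [0.886–1.85]. Of all Trdc-positive, CD3-positive cells they were 29.5% [22.3–37.5] of 149 and 29.2% [24.6–34.2] of 366, a ratio of 0.990 [0.691–1.44]. A different share among T cells with Trdc was thus not detectable at this depth. Chow cells carried more macrophage transcripts, and leaving out cells with at least 2 UMIs of macrophage, B or dendritic cell markers kept 21 chow and 98 ketogenic cells and gave a ratio of 3.74. Only these cells were filtered and not the clustered cells they are counted over, so that value follows from the filter's unequal reach in the 2 libraries.

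The receptor transcripts separated these cells from the rest of cluster 4. Tcrg-C1 (ENSMUSG00000076749, chromosome 13, 19214103 to 19217024, GRCm38), a constant gene of the gamma chain, stood at 237 CPM [158–343] and 166 CPM [129–210.4]. In the Trdc-negative cells it stood at 41.8 CPM [26.8–62.2] and 37.1 CPM [28.0–48.2], and the intervals did not overlap in either library. Tcrg-C4, another gamma constant gene, was at 195 and 157 CPM against 36.6 and 40.4 CPM. Trac, the constant gene of the alpha chain, went the other way, at 110.2 CPM [58.7–188] and 159 CPM [123–202] against 404 CPM [354–459] and 616 CPM [577–657]. Trbc2, a beta chain constant gene, was present in both, at 1017 and 990.2 CPM against 1485 and 1918 CPM. The gamma constant genes resemble each other, as do the beta constant genes, so the split of reads among them is uncertain.

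Counted cell by cell, at least 1 UMI of Tcrg-C1, Tcrg-C2 or Tcrg-C4 without Trac was seen in 25 of 44 chow cells (56.8% [41.0–71.7]) and 67 of 107 ketogenic cells (62.6% [52.7–71.8]). In the Trdc-negative cells this class held 16 of 211 (7.58%) and 21 of 403 (5.21%), and in the Trdc-positive cells of cluster 11 it held 80.0% in each library. Trac without a gamma gene was seen in 2 chow and 12 ketogenic cells. The 12 ketogenic cells had a median of 6272.5 UMIs (range 2965 to 8500), above the 3121 of all 107, and held a median of 1 Trdc UMI. The class changed with the number of Trdc UMIs in the ketogenic library, while the chow counts were small. Of ketogenic cells with 3 or more Trdc UMIs, 63 of 74 held a gamma constant gene and 10 of 74 held Trac. Of those with 1 Trdc UMI, 8 of 20 held a gamma constant gene and 12 of 20 held Trac. Of chow cells, a gamma constant gene was held by 17 of 24 with 3 or more Trdc UMIs and 6 of 11 with 1, and Trac by 2 of 24 and 4 of 11. With 2 Trdc UMIs, 8 of 9 chow and 10 of 13 ketogenic cells held a gamma constant gene, and 2 of 9 and 4 of 13 held Trac. In the chow library the gamma share was thus highest at 2 Trdc UMIs. The name gamma-delta T cell thus matches the constant genes of most of the cells. It matches less for the cells with a single Trdc UMI, of which the chow library held only 11. After thinning, any gamma constant gene was seen in 40.7% and 38.9% of the cells, in 11.3% and 12.5% of Trdc-negative cells and in 0.688% and 1.08% of cluster 6. Without thinning the deeper cells of cluster 6 had 4.89% and 7.32%. In the cluster 1 cells Tcrg-C4 gave 64 and 111 UMIs, beside 5 and 4 of Tcrg-C1 and 2 and 7 of Tcrg-C2.

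**Figure D1:**
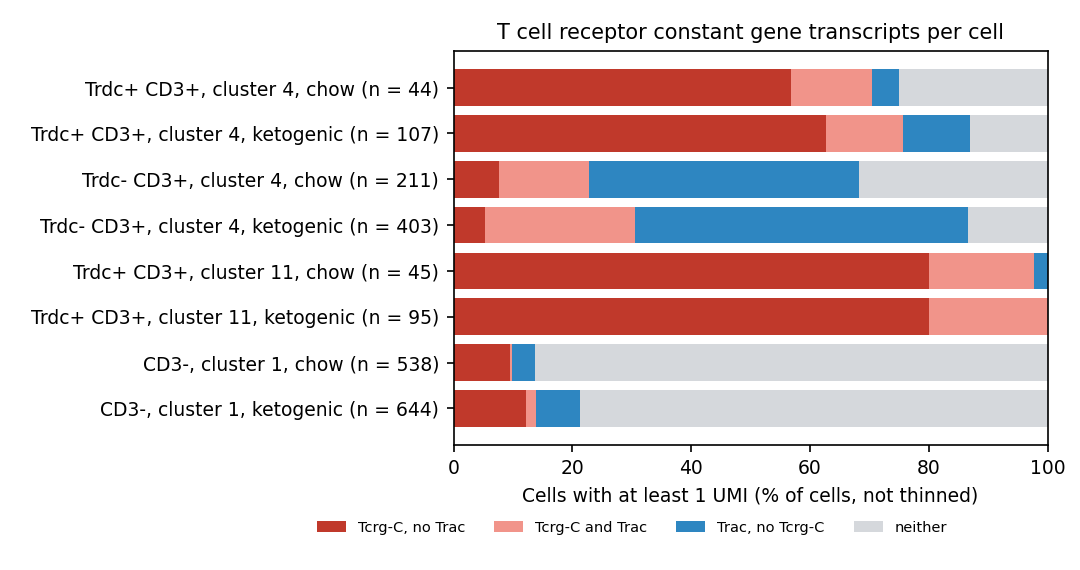
Horizontal stacked bars show the percent of cells in each group and library (vertical axis, with the number of cells) that held at least 1 UMI of a gamma chain constant gene (Tcrg-C1, Tcrg-C2 or Tcrg-C4), of Trac, of both or of neither; cells were not thinned. The class gamma without Trac takes 56.8% and 62.6% of the Trdc-positive cells of cluster 4 but 7.58% and 5.21% of the Trdc-negative ones.

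Variable gene segments gave few UMIs, and are described by kind. Some alpha chain segments can also join a delta chain, and their symbols then carry a dv part, as in Trav15-2-dv6-2 and Trav13-4-dv7. The 10 such segments summed to 4 UMIs (33.9 CPM [9.24–86.8]) and 14 UMIs (33.7 CPM [18.4–56.6]). In the Trdc-negative cells they summed to 1 UMI (1.74 CPM [0.0441–9.70]) and 8 UMIs (5.30 CPM [2.29–10.5]). The 118 other alpha segments had 4 UMIs in the ketogenic library, or 9.64 CPM [2.63–24.7], against 44 UMIs, or 29.2 CPM [21.2–39.2]. In the chow library they had 0 UMIs, which allows up to 25.4 CPM, against 15.7 CPM, so no order is shown there. The delta segment Trdv4 had 21 and 52 UMIs in the Trdc-positive cells of cluster 11 and 0 in both libraries here. Trdv2-2 had 3 and 8 UMIs here, and Trdv1 and Trdv5 had 0 and 4 each. Delta segments were not limited to CD3-positive cells, since the cluster 1 cells held 50 and 61 UMIs of Trdv2-2 (38.0 and 29.1 CPM against 25.4 and 19.3 CPM here) and 19 and 29 of Trdv4. This grouping of segments was made after their values were seen.

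Transcripts of several NK receptors were present in the cells. Klrd1, which encodes CD94, stood at 568 CPM [440.1–721] and 648 CPM [573–730.3] and was seen in 44.8% and 46.4% of thinned cells (79.5% and 85.0% without thinning). Klrk1, which encodes the activating receptor NKG2D, stood at 610.2 CPM [477–768] and 788 CPM [705–878]. At least 1 of Klrc1, Klrc2 and Klrk1 was seen in 90.9% and 95.3% of cells, or 66.2% and 69.8% after thinning. In cluster 6 the shares were 61.9% and 68.2%, or 13.9% and 13.8% after thinning. Cluster 6 cells were deeper, at medians of 7906 and 9922 UMIs. Thinning lowers their shares more, so the thinned background may be too low for shallower cells. Further receptors were plain. Cd160 was at 119 CPM [64.9–199] and 202 CPM [161–251], Ncr1 (the NK receptor NKp46) at 119 and 289 CPM, and Klrb1c (NK1.1) at 203 and 265 CPM. Signalling adaptors of NK receptors were present with them, Fcer1g at 1415 and 1441 CPM, Tyrobp at 1246 and 1479 CPM and Hcst, which passes on the signal of NKG2D, at 1229 and 1120.3 CPM. The marker genes proposed for these cells that the rule did not use, Klra1, Cd160 and Xcl1, were detected in both libraries. They were also detected in the Trdc-negative cells and in the cluster 1 cells of both libraries. Against the Trdc-negative cells Klra1 had log2 ratios of -1.90 and -1.04 and Xcl1 of -0.19 and -0.16. Their detection thus does not set these cells apart within cluster 4.

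Among the NKG2 genes, Klrc1 (ENSMUSG00000030167, chromosome 6, 129666015 to 129678973, minus strand) was higher than in the Trdc-negative neighbours. It stood at 356 CPM [257–481] and 345 CPM [290.4–406] against 167 CPM [135–204] and 211 CPM [188–235], with intervals that did not overlap. The log2 ratios were 1.10 and 0.71, so the gene was past 2-fold in 1 library. Klrc1 and Klrd1 were seen in the same cell in 15 of 44 and 56 of 107 cells, against 49 of 211 and 115 of 403 Trdc-negative cells. After thinning these shares were 8.99% and 13.9% against 7.30% and 6.64%, so they lay further apart in the ketogenic library.

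The Ly49 genes went the opposite way in sum, though not each of them. Their 11 measured genes summed to 483 CPM [366–626] and 1087 CPM [989–1192], against 1548 CPM and 1910.2 CPM in the Trdc-negative cells. Klra7 (Ly49G) stood at 203 CPM [130.3–303] and 296 CPM [246–354] against 761 CPM [691–836] and 879.9 CPM [833–928]. Klra1 (Ly49A) stood at 93.2 CPM [46.5–167] and 260.2 CPM [213–314] against 362 CPM [315–415] and 536 CPM [499–574]. Klra6 (Ly49F) had 3 and 4 UMIs, or 25.4 CPM [5.24–74.3] and 9.64 CPM [2.63–24.7], against 97.5 CPM [73.6–127] and 107 CPM [91.5–125]. Klra1, Klra6 and Klra7 were lower in both libraries, and their intervals overlapped only for Klra6 in the chow library. Klra3 and Klra5 had no common direction, with log2 ratios of -0.27 and 0.90 for Klra3 and -1.56 and 0.55 for Klra5. At least 1 Ly49 gene was seen in 22 of 44 chow cells and 73 of 107 ketogenic cells (68.2% [58.5–76.9]), against 83.4% and 88.1% of Trdc-negative cells. After thinning the shares were 34.1% and 45.4% against 64.7% and 69.2%, with 4.27% and 4.22% in cluster 6 as background. Without thinning the deeper cells of cluster 6 had 22.1% and 27.6%. Cells with 3 or more different Ly49 genes were 1 of 44 and 21 of 107 here and 53 of 211 and 140 of 403 among the Trdc-negative cells. The Ly49 genes are close copies of each other, so the split of reads among them is uncertain, to which the sum over the family is less open.

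To show the regions that start these receptor genes, the promoters of the 3 Ly49 genes that were lower and of Klrc1, which was higher, are printed from RefSeq (GRCm38.p6). Each runs 5′ to 3′ on the gene's strand from 250 bases before the start to 50 bases after it. All lie on the minus strand, Klra1 at chr6:130386825-130387124, Klra6 at chr6:130026905-130027204, Klra7 (the first of 2 listed entries) at chr6:130231638-130231937 and Klrc1 at chr6:129678924-129679223. Capitals mark matches on either strand to TGTGGT, letters that Runx factors bind, and to TCACAC, letters that T-box factors bind, and no matches overlapped.
Klra1: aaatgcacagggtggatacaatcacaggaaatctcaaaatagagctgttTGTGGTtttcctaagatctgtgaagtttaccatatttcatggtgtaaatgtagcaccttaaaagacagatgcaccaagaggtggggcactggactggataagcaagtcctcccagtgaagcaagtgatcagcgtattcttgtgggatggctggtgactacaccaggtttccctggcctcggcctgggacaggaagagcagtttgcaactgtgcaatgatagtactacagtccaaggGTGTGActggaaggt
Klra6: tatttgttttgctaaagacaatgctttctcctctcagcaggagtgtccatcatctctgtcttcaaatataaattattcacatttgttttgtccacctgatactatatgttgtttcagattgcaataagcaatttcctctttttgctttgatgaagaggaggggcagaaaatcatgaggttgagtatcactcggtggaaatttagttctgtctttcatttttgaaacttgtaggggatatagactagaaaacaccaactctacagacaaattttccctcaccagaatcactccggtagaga
Klra7: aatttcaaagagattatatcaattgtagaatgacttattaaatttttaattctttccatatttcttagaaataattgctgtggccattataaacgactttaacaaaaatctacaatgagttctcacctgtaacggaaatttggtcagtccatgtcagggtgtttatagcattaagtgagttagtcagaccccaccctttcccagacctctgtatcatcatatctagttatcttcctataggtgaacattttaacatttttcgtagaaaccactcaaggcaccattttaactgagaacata
Klrc1: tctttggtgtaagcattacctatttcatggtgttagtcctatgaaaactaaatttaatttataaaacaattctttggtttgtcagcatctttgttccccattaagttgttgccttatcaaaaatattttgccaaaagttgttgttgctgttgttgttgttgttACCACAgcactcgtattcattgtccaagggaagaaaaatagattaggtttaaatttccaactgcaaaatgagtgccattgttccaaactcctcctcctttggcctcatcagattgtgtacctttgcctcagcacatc
The Runx letters were found in the Klra1 promoter, at position -201 from the start, and in the Klrc1 promoter, at -87 on the other strand. The T-box letters were found in the Klra1 promoter, at position 35 on the other strand. Neither was found in the Klra6 and Klra7 windows. Of 32851 mouse promoters of this length, 16.8% hold the Runx letters and 14.5% the T-box letters, so these matches are a description. Aligned in pairs with gaps allowed, the 4 promoters were identical at 47.6% to 52.5% of positions. The highest value was between Klra6 and Klrc1, which is not a Ly49 gene. No background was computed for these values, so they are not read as relatedness.

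**Figure D2:**
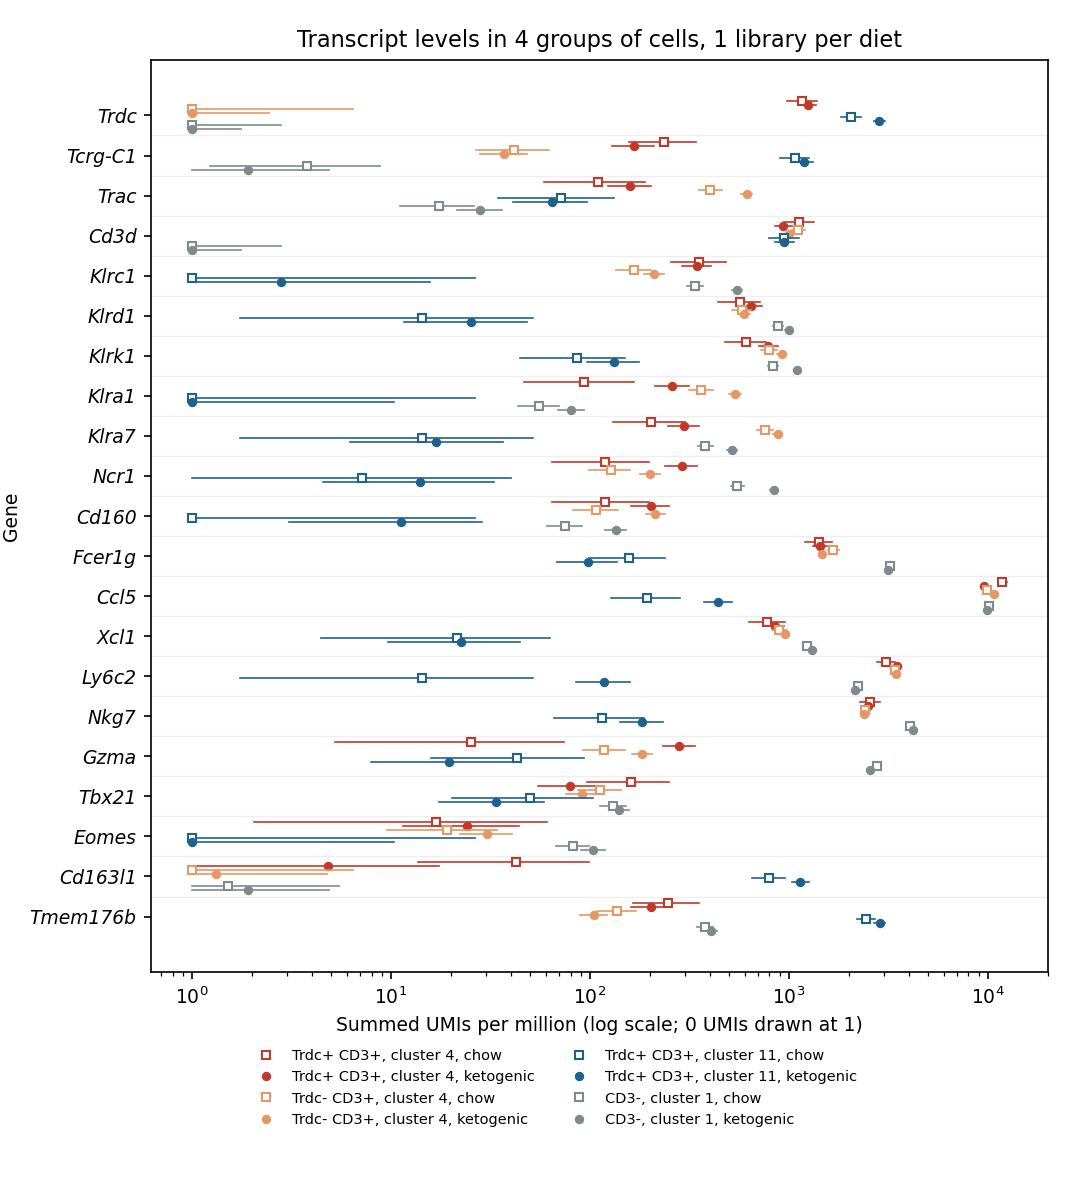
The horizontal axis gives summed UMIs as CPM on a log scale, with 0 UMIs drawn at 1, for 21 genes (vertical axis) in 4 groups of cells; open squares are the chow library, filled circles the ketogenic library, and lines are exact 95% Poisson intervals. Klrc1 lies to the right of the Trdc-negative cells of cluster 4 and Klra1 and Klra7 lie to their left, while Cd163l1 and Tmem176b are highest in the Trdc-positive cells of cluster 11.

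Across all genes, the Trdc-positive and Trdc-negative cells of cluster 4 were close. Of 3593 genes with at least 20 UMIs in each library, 6 were at least 2-fold higher in the Trdc-positive cells in both libraries (0.167%) and 6 were at least 2-fold lower (0.167%), and the median log2 ratio was 0.03. Under another scaling (TMM factors) 4 were higher and 9 lower. Counting error alone can give counts of this size, so the text rests on the genes whose intervals lie apart. The 6 higher genes were Trdc itself, which the rule used, Tcrg-C1, Tcrg-C4, Lilrb4a, 2310039H08Rik and Gch1. Lilrb4a, an inhibitory immunoglobulin-like receptor, had log2 ratios of 1.82 [0.47 to 3.07] and 1.20 [0.15 to 2.17], from 10 and 15 UMIs. Gch1, an enzyme of tetrahydrobiopterin synthesis, had 1.01 [-0.43 to 2.21] and 1.06 [0.33 to 1.75], and its chow interval spans 0. The 6 lower genes were Klra6, Trac, Klra7, Klra1, Gzmb and Fip1l1. Gzmb, which encodes the protease granzyme B, was at 33.9 CPM [9.24–86.8] and 161 CPM [125–205] against 125 CPM [98.1–158] and 359 CPM [329–390.2]. Of 11 Ly49 genes in the files 6 reached the minimum, Klra6 through the larger Trdc-negative group, so no count over them is read. Of the other NK receptors, 0 of 13 were past 2-fold, with a median of -0.07. Likewise, 0 of 13 lineage transcription factors, 0 of 11 residence and egress genes and 0 of 8 cytokines and chemokines were past 2-fold.

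**Figure D3:**
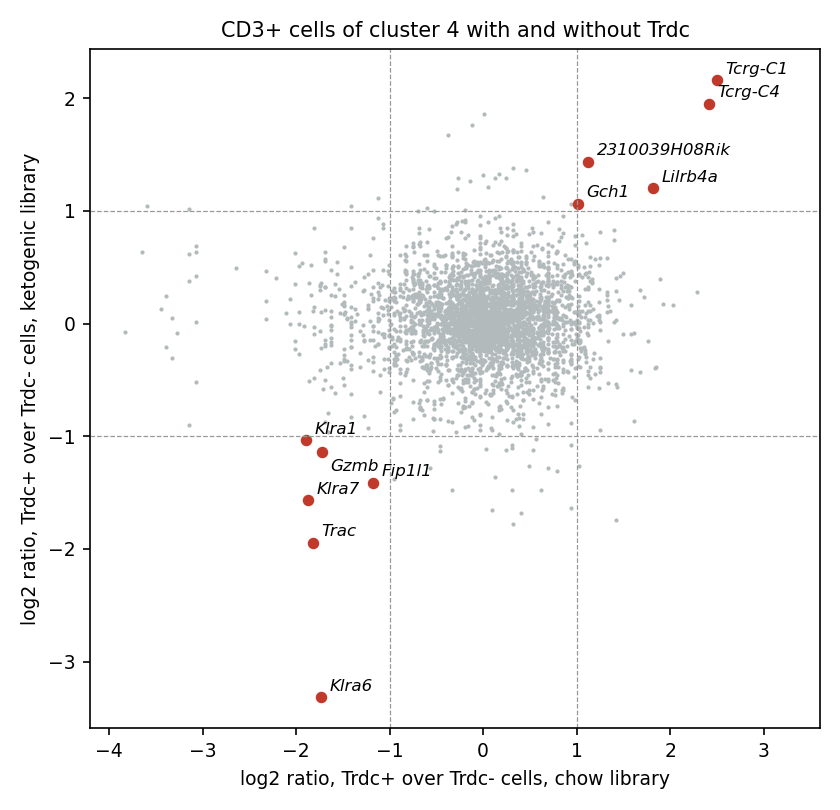
Each point is a gene other than Trdc with at least 20 UMIs in each library; the horizontal axis is the log2 ratio of Trdc-positive over Trdc-negative CD3-positive cells of cluster 4 in the chow library and the vertical axis the same ratio in the ketogenic library, with dashed lines at 2-fold. The named red genes are past 2-fold in both libraries, with Tcrg-C1 and Tcrg-C4 at the upper right and Klra1, Klra6, Klra7, Trac and Gzmb at the lower left.

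The Trdc-positive cells of cluster 11 differed from these cells in many more genes. Of 1595 genes, 57 were at least 2-fold higher in the cluster 4 cells in both libraries (3.57%) and 106 at least 2-fold lower (6.65%), with a median of -0.08. The clusters had been made on these genes, so the counts are a description. Ly6c2, a surface antigen of memory-type T cells, stood at 3076 CPM [2768–3409.8] and 3496 CPM [3318–3680.3] against 14.4 and 118 CPM. Ccl5, a chemokine of cytotoxic lymphocytes, stood at 11848 and 9581 CPM against 194 and 442 CPM, and Xcl1, a chemokine that draws cross-presenting dendritic cells, at 779.7 and 850.4 CPM against 21.6 and 22.5 CPM. Klrc1 had 0 UMIs in the chow cells of cluster 11, so that it was at least 16.5-fold higher in those of cluster 4 (against 3 counts in the group), and it had 1 UMI in the ketogenic cells of cluster 11. Of 19 other NK receptors in the files 7 reached the minimum, most of their UMIs being in the cluster 4 cells, so no count over them is read. Cd27 and Cd28, costimulatory receptors, were among the higher genes too, Cd28 at 314 and 226 CPM against 7.19 and 14.1 CPM.

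Genes of the IL-17 program are given by their values, since of 17 in the files the 9 that reached the minimum include genes that did so through cluster 11 alone. Il17a had 0 UMIs here, at least 6.22-fold and 7.79-fold lower (against 3 counts in the group) than its 22 and 20 UMIs in cluster 11. Blk, a kinase of IL-17-type gamma-delta T cells, also had 0 UMIs, at least 7.92-fold and 30.8-fold lower. Il23r, the interleukin 23 receptor, had 0 UMIs in both libraries, which allows up to 25.4 and 7.23 CPM, against 9 and 19 UMIs in cluster 11. Cd163l1 (SCART1) was at 42.4 CPM [13.8–98.9] and 4.82 CPM [0.584–17.4] against 798 and 1142 CPM. Tmem176b was present in these cells, at 246 CPM [165–353] and 202 CPM [161–251], but well below the 2451 and 2867 CPM of cluster 11. Further genes are given by their values too. Actn2, an actin-binding protein, was at 0 UMIs here, at least 13.3-fold and 61.9-fold lower, and Pxdc1 and Rbpms2 were also at 0. With 0 UMIs here, these genes reached the minimum through cluster 11 alone, so they could only be called lower. Tnfsf11, the cytokine RANKL, and Ltb4r1, a leukotriene B4 receptor, were among the 10 lowest genes as well, Ltb4r1 with log2 ratios of -4.10 and -7.34. Cxcr6, a homing receptor of tissue-resident lymphocytes, was lower, at 84.8 and 145 CPM against 848 and 1319 CPM, and Il7r, the interleukin 7 receptor, was at 153 and 133 CPM against 482 and 369 CPM.

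Against the CD3-negative cells of cluster 1, which carry the NK markers, 39 of 5895 genes were 2-fold higher in both libraries (0.662%) and 104 lower (1.76%), with a median of -0.06. The balance depended on the number added to each count, with 77 higher and 33 lower after adding 2. Without cells with macrophage, B or dendritic cell markers, 17 were higher and 57 lower of 3834 genes. Trdc and the CD3 genes were at 0 there by the rule. Ikzf2, which encodes the transcription factor Helios, stood at 195 CPM [124–292] and 157 CPM [121–199.6] against 26.6 and 37.3 CPM. Il2, the T cell growth factor, had 9 and 21 UMIs, or 76.3 and 50.6 CPM, against 10.6 and 19.1 CPM, and S1pr1, a receptor used to leave tissues, was at 67.8 and 45.8 CPM against 13.7 and 14.8 CPM. Kcnn4, a potassium channel of activated T cells, had log2 ratios of 1.66 [0.14 to 2.83] and 2.71 [1.82 to 3.63]. Genes of the NK program were among the lower ones. Gzma, the granule protease granzyme A, stood at 25.4 CPM [5.24–74.3] and 282 CPM [233–338] against 2774 and 2572 CPM, and Klra8 (Ly49H) had 0 and 46 UMIs against 519 and 1192. Eomes, a transcription factor of NK cells, stood at 16.9 CPM [2.05–61.2] and 24.1 CPM [11.6–44.3] against 82.1 and 104 CPM, and 8 of its 10 ketogenic UMIs lay in the 13 deepest cells. Ccl4 was lower too, at 144 and 429 CPM against 2385 and 1751 CPM. Among the activating adaptors Fcer1g was lower, at 1415 and 1441 CPM against 3247 and 3137 CPM. Of 19 other NK receptors in the files 16 reached the minimum and of 11 Ly49 genes 6 did, several of them through the larger cluster 1, so no count over them is read.

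The effector genes of the cells can be set in order by role. Interferon gamma (Ifng) was at 119 CPM [64.9–199] and 154 CPM [119–197], close to the 120.1 and 154 CPM of the Trdc-negative cells. Nkg7, a granule protein, was at 2559 and 2494 CPM, while Prf1 (perforin) was low at 1 and 9 UMIs. Tbx21, which encodes T-bet, the transcription factor of interferon gamma production, was at 161 CPM [96.9–251] and 79.5 CPM [54.7–112]. Zbtb16, the factor of innate-like T cells known as PLZF, had 1 UMI in each library. Coreceptors were rare. Cd8a or Cd8b1 was seen in 5 of 44 and 12 of 107 cells, and Cd4 had 0 and 3 UMIs. Klf2, a factor of circulating lymphocytes, was at 712 and 660.1 CPM. Itgae, which encodes the residence integrin CD103, had 0 and 2 UMIs. The tissue repair factor Areg had 4 and 11 UMIs.

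Between diets, 43 of 1302 genes whose UMIs in the 2 libraries summed to 50 or more were at least 2-fold higher in the ketogenic cells (3.3%) and 12 at least 2-fold lower (0.922%), with a median of 0.05. Under TMM factors the split was 58 higher and 6 lower, and without the deepest cells, described with Gzma, it was 26 higher and 11 lower. At this depth counting error alone can carry a gene past 2-fold, so these counts are not read as a response to the diet. The genes at the head of the higher list, Klra4 (Ly49D) and Gzma, are NK genes and rested on few cells. Gzma had 3 UMIs in 3 chow cells and 117 UMIs in 24 ketogenic cells, a log2 ratio of 3.25 [1.89 to 5.77]. Klra4 had 1 UMI in the chow library and 55 UMIs in 8 cells of the ketogenic library, 26 of them in 1 cell, and a ratio of 3.39 [1.43 to 9.30].

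The cells with more than 2 times their library's median UMIs (above 4807 and 6242) were 3 of 44 and 13 of 107. The 13 ketogenic cells held 26.3% of all UMIs, but 82.9% of those of Gzma, 92.7% of those of Klra4 and 84.8% of those of Klra8. Of these 13 cells, 8 had exactly 1 Trdc UMI and 11 had a Trac UMI, and their Trdc level was 348 CPM against 1579 CPM in the other 94. Without such cells the log2 ratio of Gzma between diets was 0.94 and that of Klra4 was -0.027, the opposite sign. Of the whole NK marker list, 7 of 8 genes were detected in the chow cells, Klra8 being at 0, and 8 of 8 in the ketogenic cells, with summed levels of 1881 and 2718 CPM. Tyrobp gave 147 of the 222 chow UMIs and 614 of the 1128 ketogenic UMIs of the list. The list summed to 2303 and 2274 CPM in the Trdc-negative cells and to 8528 and 8965 CPM in the cluster 1 cells. No doublet caller was run, and whether these deep cells were single cells was not tested. This set of deep cells was chosen after the data were seen.

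**Figure D4:**
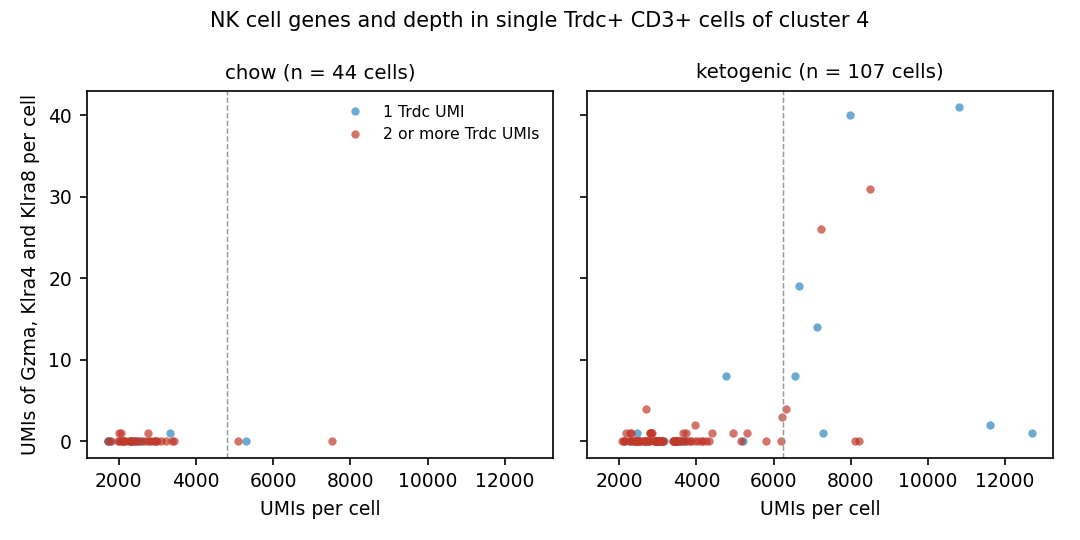
Each point is 1 of the 44 chow (left) or 107 ketogenic (right) cells, with its UMIs on the horizontal axis and its summed UMIs of Gzma, Klra4 and Klra8 on the vertical axis; blue cells hold 1 Trdc UMI, red cells 2 or more, and the dashed line marks 2 times the library's median. High values of these NK genes lie mostly to the right of the line in the ketogenic library, and 8 of the 13 cells to its right hold 1 Trdc UMI.

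Other genes of the higher list were spread over more cells. Gzmb had 4 and 67 UMIs, a log2 ratio of 2.09 [0.83 to 4.17], and 1.92 without the deep cells. The ratio was 1.51 in the Trdc-negative cells and 0.12 in the cluster 1 cells. Ccl4, a chemokine of activated T and NK cells, was at 144 CPM [83.9–231] and 429 CPM [368–497], a log2 ratio of 1.54 [0.85 to 2.39], and 1.20 without the deep cells. In the Trdc-negative cells its ratio was 0.41 and in cluster 1 it was -0.45. Klra1 was at 93.2 and 260.2 CPM, a log2 ratio of 1.42 [0.58 to 2.53], with 0.56 in the Trdc-negative cells. Fasl, the death ligand, had 1.01 [0.18 to 2.07], and Fyb, an adaptor of T cell receptor signalling, had 1.55 [0.53 to 3.01]. Lman2, Gltp, Gdi2 and Pld3, genes of vesicle, lipid and lysosomal handling, and Bcl2a1b, an anti-apoptotic gene, had ratios of 1.44 to 1.76, each from 4 to 7 chow UMIs. The genes of this paragraph reached the minimum of 50 UMIs through the ketogenic library alone, where they are high. Their place in the higher list is therefore a description. Whether the diet ratios differed between these groups of cells was not tested.

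The lowest ratios belonged to macrophage transcripts. Retnla stood at 593 CPM [462–749.5] and 50.6 CPM [31.3–77.3], a log2 ratio of -3.53 [-4.33 to -2.83]. Lyz2 (lysozyme) stood at 619 CPM [485–778] and 94.0 CPM [66.8–128], a ratio of -2.71 [-3.32 to -2.14]. Similar ratios were measured in the other lymphocytes, -4.13, -3.48 and -3.37 for Retnla in the Trdc-negative, cluster 11 and cluster 1 cells. Over all clustered cells Retnla was at 4124 and 386 CPM, and the macrophage clusters 3 and 8 made up 27.4% and 3.45% of cells. Of the macrophage marker list, 6 of 8 genes were detected in the chow cells and 5 of 8 in the ketogenic cells, with Adgre1 and Csf1r at 0 in both and summed levels of 712 and 118 CPM. Their part in the diet ratios of other genes was not tested. Tbx21 had a log2 ratio of -1.03 [-1.87 to -0.12], and -0.08 without cells with at least 2 macrophage, B or dendritic cell marker UMIs. Further lower genes were Gm10263 at -1.56, Aprt at -1.35, BC005537 at -1.22, Gm8186 at -1.09, and Flna, Ablim1 and Pfdn2 at -1.05 to -1.03. Gm10263 and Gm8186 are gene models whose reads may be shared with near-identical copies.

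**Figure D5:**
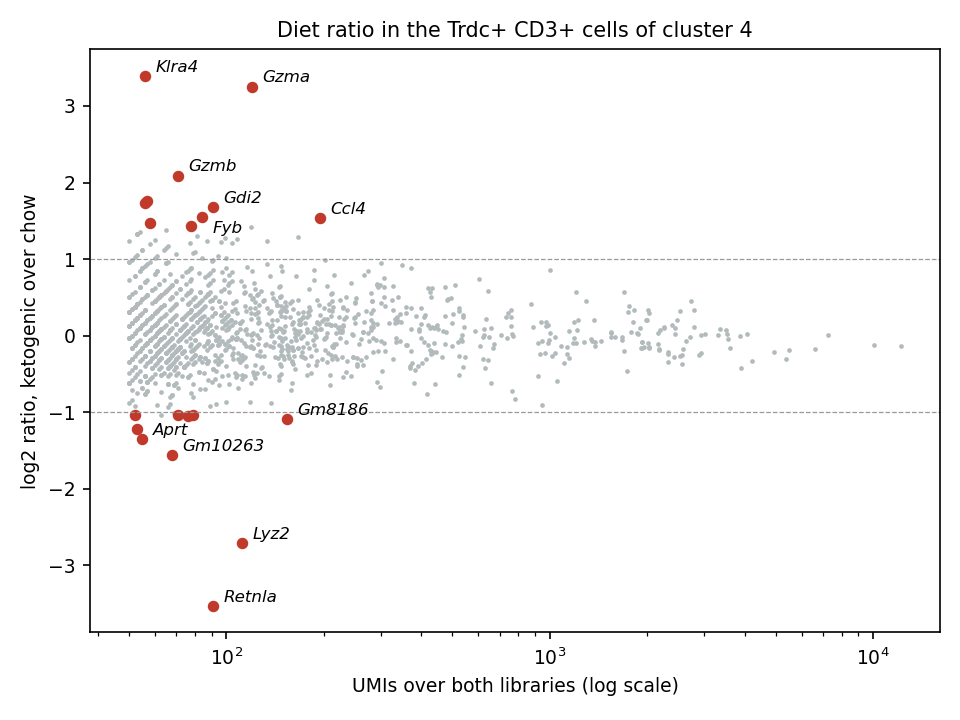
Each point is 1 of 1302 genes in the Trdc-positive, CD3-positive cells of cluster 4, with its UMIs over both libraries on a log horizontal axis and its log2 ratio, ketogenic over chow, on the vertical axis; dashed lines mark 2-fold and red points the 10 highest and 10 lowest genes. Klra4 and Gzma lie highest, at 3.39 and 3.25, and Retnla and Lyz2 lowest, at -3.53 and -2.71.

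Gene lists gave little between diets beyond these genes. Of 14 cytotoxic granule genes 10 reached the minimum and of 11 Ly49 genes in the files 4 did, Gzma, Gzmb and Klra4 through the ketogenic library where they are high, so no count or median over these lists is read. Over all 1302 genes 3.3% were past 2-fold higher and 0.922% lower, with a median of 0.05. At that share a short list would hold few such genes or none, so the counts below are a description. In the glycolysis list 7 of 8 genes were above 0 and 1 was past 2-fold, with a median of 0.62. That gene was Pkm, pyruvate kinase, at 144 CPM [83.9–231] and 361 CPM [306–424]. The same list had medians of 0.46 in the Trdc-negative cells, 0.25 in the cluster 11 cells and 0.54 in the cluster 1 cells, where the median gene was at 0.03 to 0.04. Of the interferon response genes 0 of 3 and of MHC class I genes 0 of 8 were past 2-fold, which is near the share over all genes. Of ketone body metabolism 0 of 9 genes reached the minimum and of fatty acid oxidation 1 of 15 did, so those pathways could not be read here. The immediate early and dissociation genes had 0 of 15 past 2-fold and a median of 0.32, against 0.05 over all genes. The list median was 0.23 without the deep cells, against 0.03 over all genes. Among cells with a gamma constant gene and no Trac it was -0.01, against 0.01.

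Markers of other cell types were present at unequal levels. Plasma cell markers summed to 195 and 176 CPM, nearly all from Jchain and Xbp1, against 188 and 184 CPM in the Trdc-negative cells, with Mzb1 at 0 and 2 UMIs. Igkc, an immunoglobulin light chain gene named after its values were seen, stood at 1466 and 1101 CPM here, at 1328 and 1106 CPM in the Trdc-negative cells and at 1464 and 1099.8 CPM in the cluster 1 cells. Their part in the results was not tested. Adipocyte and stromal markers had 0 UMIs in both libraries, and erythroid markers had 0 and 2. Of B cell markers 1 of 4 was detected in the chow cells, at 8.48 CPM summed, and 2 of 4 in the ketogenic cells, at 16.9 CPM. Dendritic cell markers of cluster 6 summed to 8.48 and 9.64 CPM, with 1 of 4 and 3 of 4 detected. Regulatory T cell markers summed to 220.3 and 190.3 CPM with 3 of 4 and 4 of 4 detected, of which Ikzf2 gave 23 of 26 and 65 of 79 UMIs. Foxp3, the factor of regulatory T cells, had 0 UMIs in the chow library and 3 in the ketogenic library, all in 1 cell.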

How the data were processed

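The 2 libraries (10x Genomics) were deposited by the authors as raw UMI counts per gene and cell, not normalised, as their whole-number values show; Cell Ranger, Seurat and mm10 are named in the submitters' processing notes, with no version. The authors' deposited cluster numbers (resolution 0.5) cover 10017 cells of 13 clusters; 142 cells without one were left out, among them 5 of 87 chow and 2 of 55 ketogenic cells with Trdc and CD3. UMIs were summed per group and library, scaled to CPM, and compared as log2 ratios with 0.5 added to each count, past 2-fold meaning an absolute log2 ratio of at least 1 (in both libraries for comparisons of cell groups). Genes needed 50 UMIs over both libraries between diets, or 20 over both groups in each library. Named genes are the 10 highest and 10 lowest past 2-fold per comparison, without mitochondrial, immunoglobulin, Xist and Y genes, plus members of the fixed lists. The members and lists were chosen with earlier results of these data known. Intervals are exact binomial, Poisson or conditional. Thinned shares are hypergeometric expectations at 1000 UMIs. Positions are from GENCODE M21, which holds 28339 of 28692 gene IDs, and promoters from RefSeq. Alternatives were other minimums, added counts, scalings (edgeR 4.0.16 in R 4.3.3, for TMM factors only) and cell filters. Python 3.11.15, numpy 2.4.6, scipy 1.17.1 and pandas 2.3.3 were used. The ratio step was tested on simulated data, where genes made without a difference passed 2-fold about as often as genes did between diets and within cluster 4. Doublets were not removed. Some members of the fixed lists are not reported here.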

Additional observations from a re-analysis of the deposited data

How the results depend on the processing

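No paired analysis was possible because each diet has 1 library and the labels give no replicate numbers; leaving out a replicate was not possible for the same reason. The ratio of shares between diets, 1.95 over clustered cells, was 1.27 over cluster 4, 0.990 over cells with Trdc and CD3, 1.23 over cells with CD3 and 3.74 without cells with marker UMIs of macrophages, B or dendritic cells; the other 5 settings kept it within the interval. Between diets, the 43 higher and 12 lower genes became 8 and 2 with a minimum of 100 UMIs and 234 and 109 with 20; the higher ones numbered 25 with 2 added to each count, 26 without the deep cells and 19 among cells with Tcrg-C and no Trac, and the lower ones 6 with TMM factors. Against Trdc-negative cells, the counts of 6 and 6 became 25 and 21 with a minimum of 10; the higher ones were 2 with a minimum of 50 and 3 without cells with those markers, and the lower ones 12 with at least 2 Trdc UMIs, 10 without the deep cells and 13 among cells with Tcrg-C and no Trac. Against cluster 11, 57 and 106 became 25 and 49 with a minimum of 50, 104 and 196 with 10, and 29 and 51 without cells with those markers. Against cluster 1, 39 and 104 became 12 and 50, then 80 and 185, at these minimums, 77 and 33 with 2 added, 17 and 57 without cells with those markers, and 65 higher among cells with Tcrg-C and no Trac. Fewer or more genes reach another minimum, and some cell filters also left fewer genes that reached it. Without cells with those markers the genes compared fell from 3593 to 1724 against Trdc-negative cells. They fell from 1595 to 731 against cluster 11 and from 5895 to 3834 against cluster 1. Between diets they fell from 1302 to 1008 without the deep cells and to 712 among cells with Tcrg-C and no Trac. The other causes were not tested. Klra4 between diets turned to -0.027 without the deep cells, and Trac against cluster 1 to -2.42 among cells chosen to lack Trac. The log2 ratios of named and listed genes stayed within their interval in 442 of 462 cases between diets, 345 of 360 against Trdc-negative cells, 374 of 380 against cluster 11 and 420 of 450 against cluster 1. TMM factors moved the median over all genes from 0.03 to -0.08 against Trdc-negative cells and from -0.08 to 0.03 against cluster 11, and adding 2 to each count moved it from 0.03 to 0.13 and, against cluster 1, from -0.06 to 0.17. The settings without the deep cells and with Tcrg-C and no Trac were chosen after seeing the data. Depth limits the chow side, where 3 counts are 25.4 CPM.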
